A study of Homo sapiens with 4 samples.

Results

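HERV-H is a family of endogenous retroviruses with many copies in the human genome, and 10 transcripts of human embryonic stem cells linked to its elements are described here. They were taken by symbol from a table of 17472 listed genes, which holds all 10. The 10 were chosen by their levels and differences in these same MEK5DD and WT libraries, so those values are given as a description. Calls given for the 10 were shaped by that choice and are no test of them. They are HHLA1, ABHD12B, LINC00458, ERVH48-1, LINC-ROR, LINC01108, C4orf51, ESRG, SCGB3A2 and KLKB1.

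The cells are H1, an established human embryonic stem cell line. Sequenced were 2 poly(A) libraries of H1 cells carrying MEK5DD (labelled MEK5DD overexpression) and 2 of unmodified H1 cells (WT), all grown in E8, a defined medium with FGF2 and TGF-beta among its components. MEK5DD is an activated form of MAP2K5 (MEK5), the kinase upstream of ERK5. It was delivered by lentivirus, and 1 overexpressing line was selected with puromycin. No library of cells given lentivirus and puromycin without MEK5DD is among the samples, so effects of MEK5DD, delivery, selection and the line cannot be told apart. The labels do not say whether replicates were separate cultures, so p-values reflect only how far these libraries vary, which may be technical.

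A HERV-H provirus is flanked by long terminal repeats called LTR7, which hold the promoter and the end signal of the viral transcript. In human pluripotent cells many LTR7 copies are active. They start long noncoding RNAs and chimeric transcripts of neighbouring genes, and factors such as OCT4, NANOG, KLF4 and TFCP2L1 (LBP9) are known to bind them. Raised HHLA1, ABHD12B and C4orf51 RNA is known from human induced pluripotent cell lines that resist neural differentiation. The set is mixed in kind. ERVH48-1 derives from a related family of elements and encodes suppressyn, an envelope-derived protein that blocks the receptor of the placental fusion protein syncytin-1.

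In GENCODE v29 (GRCh38) an annotated transcript of each of ESRG, LINC00458, LINC-ROR and ABHD12B begins in similar sequence. This stretch also identifies other genes of the table that start in the same way. Against ESRG the aligned stretch of LINC00458 was 94.6% identical over 260 bases, that of LINC-ROR 95.3% over 215 bases and that of ABHD12B 96.0% over 177 bases. Over longer alignments identity was lower. ABHD12B was 83.6% identical to LINC00458 and 82.7% to LINC-ROR, and LINC00458 was 90.2% identical to LINC-ROR. The ABHD12B transcript with this start begins inside the gene. Another ABHD12B transcript ends in sequence that HHLA1 also holds. Its bases 2456 to 2863, the last of which is its end, aligned with bases 417 to 826 of an HHLA1 transcript at 93.4% identity. With a minimum of 150 aligned bases and 75% identity, no annotated transcript of ERVH48-1, LINC01108, SCGB3A2, KLKB1 or C4orf51 aligned with a transcript of another of the 10. That covers annotated exons only and says nothing of sequence outside them.

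RefSeq promoters (GRCh38.p14), from 250 bases before to 50 after a gene's start, matched 5 of the 10: ABHD12B, LINC01108, SCGB3A2, KLKB1 and C4orf51. None of these aligned with the promoter of any other gene under the same limits. Those of LINC01108, whose RNA was higher in MEK5DD cells, and of SCGB3A2, whose RNA hardly differed, are shown as RefSeq starts without the shared stretch. They lie at chr6:14285405-14285704 on the minus strand and chr5:147878461-147878760 on the plus strand. Capitals mark TATAAA, a sequence of the TATA box, wherever it occurs in the window and at any distance from the start. A match by sequence alone does not show a working box. Like the other motifs it was searched on both strands, and it occurs in 11.5% of all 35116 RefSeq promoters. Among the 5 it was in 2, those shown, and not in the windows of ABHD12B, KLKB1 and C4orf51.
LINC01108: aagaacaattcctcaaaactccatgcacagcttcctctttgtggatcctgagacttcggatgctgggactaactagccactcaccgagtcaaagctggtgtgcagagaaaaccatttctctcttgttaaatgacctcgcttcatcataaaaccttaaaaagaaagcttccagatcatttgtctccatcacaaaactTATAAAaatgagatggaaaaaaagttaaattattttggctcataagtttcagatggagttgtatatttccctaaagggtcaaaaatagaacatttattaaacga
SCGB3A2: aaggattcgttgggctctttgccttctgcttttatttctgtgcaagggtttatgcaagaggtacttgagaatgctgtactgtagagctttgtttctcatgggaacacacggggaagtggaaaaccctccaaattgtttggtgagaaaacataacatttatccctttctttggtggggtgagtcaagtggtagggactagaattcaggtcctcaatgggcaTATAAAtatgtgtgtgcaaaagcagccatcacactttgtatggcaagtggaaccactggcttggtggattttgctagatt

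Of the other motifs searched, GGGTGTG, a KLF site sequence, occurs in 7.56% of all promoters and was in 1 of the 5, that of ABHD12B. ATGCAAA, part of the POU octamer, occurs in 4.46% and ACAATG, a SOX site sequence, in 10.8%, and both were in 0 of the 5. These windows are the RefSeq starts, which for ABHD12B is not the start with the shared stretch. The windows of SCGB3A2 and KLKB1 lie inside their GENCODE genes, past the first annotated start of each. Which start these cells used was not tested.

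MAP2K5 had 3382 and 3558 normalised read counts in the MEK5DD libraries, against 344 and 315 in the WT libraries, a 10.5-fold rise (adjusted p = 5.91e-11, limma). Gene counts cannot separate the introduced sequence from the native gene. Recovered reads ranged from 14908486 to 17628945 per library. The MEK5DD pair differed more between its libraries than the WT pair, with a median absolute log2 difference of 0.148 against 0.0972. Marker calls below are by limma at an adjusted p of 0.05, by which 7.69% of all tested genes were higher and 6.47% lower in MEK5DD cells. Of 12 pluripotent stem cell markers all were listed, and 1 (NANOG) was higher and 2 (SOX2 and TERF1) were lower. Their summed count ranged from 167485 to 175147 in MEK5DD and from 174258 to 176488 in WT libraries. Of 8 fibroblast markers 5 were listed and 3 of them (COL1A1, COL1A2 and TAGLN) rose. THY1 (log2 0.10) and PDGFRB (log2 -0.39) did not pass. The summed count of the 5, mostly THY1, ranged from 8889 to 9225 in MEK5DD and from 7410 to 7503 in WT libraries. COL3A1, LUM and DCN were not listed. Of 5 neuroectoderm markers 4 were listed, of which NES rose (log2 0.35, adjusted p = 0.00237) and SOX1 (log2 -2.41, adjusted p = 0.000433) and SIX3 (log2 -1.21, adjusted p = 1.84e-05) fell. PAX6, too low to be tested, had 6.36 and 5.98 in the MEK5DD libraries, against 1.76 and 3.12 in the WT libraries. The summed count of the 4, mostly NES, ranged from 7907 to 8422 in MEK5DD and from 6628 to 6802 in WT libraries. Of 5 mesoderm markers 3 were listed, of which MIXL1 rose (log2 0.98, adjusted p = 0.0012). EOMES (log2 1.19, adjusted p = 0.0693) did not pass, and T (TBXT) was too low to be tested. The summed count of the 3 ranged from 188 to 229 in MEK5DD and from 104 to 106 in WT libraries. With limma's mean-variance trend turned off, NES (adjusted p = 0.12) and MIXL1 (adjusted p = 0.0513) did not pass. Of 4 endoderm markers CXCR4 was listed and did not pass. The part of such cells in the results was not tested.

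Positions below are those of GENCODE v29 on GRCh38, the build named in the submitters' processing notes as hg38. All 10 transcripts reached a value of 10 in 2 or more libraries, the filter for testing. Levels below are the authors' normalised read counts, and fold changes are MEK5DD over WT on the log2(value + 1) scale. By limma at an adjusted p of 0.05, 7 of the 10 were higher and 0 lower in MEK5DD cells. Over all 15721 tested genes 7.69% were higher and 6.47% lower. Since the values chose the 10, nothing is read from that count. In 9 of the 10 the groups did not overlap, beside 56.2% of all tested genes. In bulk RNA, a change in the number of cells that make a transcript and a change in RNA per cell cannot be told apart. By size, 6 of the 10 were at least 4-fold higher, a fold that 0.28% of all tested genes reached. The choice of the 10 shaped these counts of separation and size too, so nothing is read from them either.

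**Figure D1:**
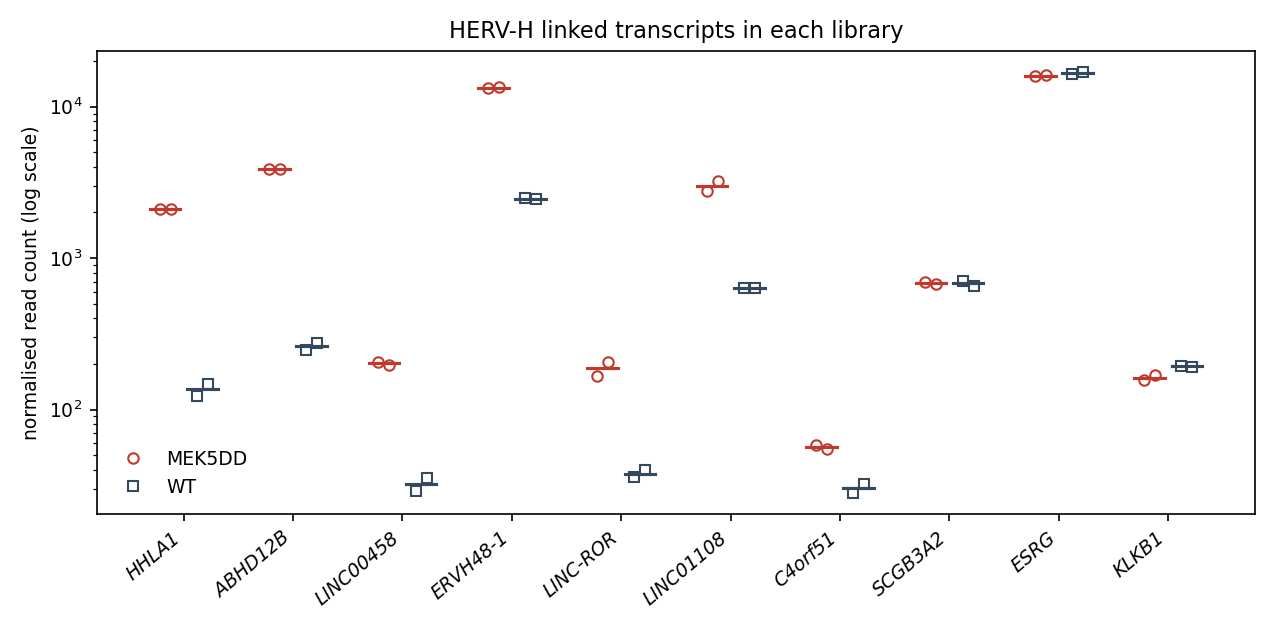
Normalised read counts (log scale) of the 10 HERV-H linked transcripts in each library, MEK5DD as circles and WT as squares, with lines at the means of 2 libraries. HHLA1 and ABHD12B stand furthest apart between the groups, while ESRG and SCGB3A2 lie at nearly the same level in both.

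HHLA1 and ABHD12B, both protein-coding and both known from differentiation-resistant lines, had the largest differences of the 10. HHLA1 (chr8:132061486-132111159, minus strand), named for its association with a HERV-H terminal repeat, had counts of 2110 and 2104 in the MEK5DD libraries, against 123 and 148 in the WT libraries. ABHD12B (chr14:50872160-50904970, plus strand), which encodes a protein of the alpha/beta hydrolase family, had 3899 and 3858 in the MEK5DD libraries, against 246 and 276 in the WT libraries. Both MEK5DD values lay far above both WT values in each gene. The log2 fold changes were 3.95 (SE 0.10) for HHLA1 and 3.89 (SE 0.08) for ABHD12B, 15.5-fold and 14.8-fold. By size of rise they stood at place 3 and place 5 of the 15721 tested genes. C4orf51 (chr4:145680115-145771032, plus strand), the third gene of that signature, had 58.2 and 54.8 in the MEK5DD libraries, against 28.2 and 32.3 in the WT libraries. Its groups did not overlap, and its log2 fold change was 0.88 (SE 0.23), 1.84-fold. It no longer passed the threshold with DESeq2 or without WT replicate 1.

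Per kilobase of exon, ERVH48-1 was the most abundant of the transcripts that were higher. It lies at chr21:42916803-42925646 on the minus strand. Its counts were 13294 and 13428 in the MEK5DD libraries, against 2481 and 2459 in the WT libraries. The libraries of each group lay close together, and the log2 fold change was 2.43 (SE 0.06), 5.41-fold. Suppressyn is known from trophoblast cells, so markers of that cell type were looked at beside it. Of 8 trophoblast markers 2 were listed, KRT7 and TFAP2A, with a summed count from 48.8 to 51.8 in MEK5DD and from 64.6 to 85.4 in WT libraries. The markers went opposite ways. TFAP2A, too low to be tested, averaged 11.5 ± 3.44 in MEK5DD and 4.12 ± 2.89 in WT libraries (SD, n = 2 each), and its groups did not overlap. KRT7 was lower in MEK5DD cells (log2 fold change -0.85, SE 0.23, adjusted p = 0.0257), a call lost under 3 alternatives (adjusted p up to 0.227), and the syncytin genes ERVW-1 and ERVFRD-1 are not listed and were not analysed here.

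Of the 4 RNAs named as noncoding genes of stem cells, 3 were higher and ESRG was not. LINC01108 (chr6:14280127-14285454, minus strand), which RefSeq also lists as LncRNA-ES1, had counts of 2756 and 3226 in the MEK5DD libraries, against 632 and 636 in the WT libraries. The MEK5DD libraries differed more from each other than the WT libraries, and all lay apart by group (log2 fold change 2.23, SE 0.08). LINC00458 (chr13:54115783-54132866, minus strand), an RNA of undifferentiated stem cells, had 205 and 198 in the MEK5DD libraries, against 29.1 and 35.4 in the WT libraries (log2 2.62, SE 0.18). LINC-ROR (chr18:57054558-57072119, minus strand), named for its part in reprogramming, had 167 and 206 in the MEK5DD libraries, against 36.1 and 39.6 in the WT libraries (log2 2.27, SE 0.18). In both of these RNAs the lowest MEK5DD value was over the highest WT value, by 5.60-fold in LINC00458 and 4.22-fold in LINC-ROR.

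ESRG (chr3:54632122-54639857, minus strand), an abundant RNA of undifferentiated human stem cells, had 15930 and 16060 in the MEK5DD libraries, against 16368 and 16979 in the WT libraries. Both MEK5DD values lay just below both WT values, and the log2 fold change was -0.06 (SE 0.06). ESRG was thus near its WT level in the same libraries in which LINC00458, LINC-ROR and ABHD12B, whose annotated starts align with its own, were 4.81-fold to 14.8-fold higher. For ABHD12B the count covers all transcripts of the gene and does not show which start was used.

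The 2 remaining genes encode secreted proteins of other tissues and differed little. SCGB3A2 (chr5:147870682-147882191, plus strand), a secretoglobin of the airway, had 694 and 671 in the MEK5DD libraries, against 706 and 653 in the WT libraries, so that the groups overlapped (log2 0.01, SE 0.08). KLKB1 (chr4:186208979-186258471, plus strand), the plasma prekallikrein made by the liver, had 156 and 168 in the MEK5DD libraries, against 194 and 192 in the WT libraries (log2 -0.25, SE 0.13). Its MEK5DD values lay below its WT values and it did not pass the threshold. Of 7 hepatocyte markers such as ALB and of 5 airway secretory markers such as SCGB1A1, 0 were listed, and they were not analysed here.

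Leaving out each library in turn moved these log2 fold changes little. HHLA1 ranged from 3.82 to 4.08, ABHD12B from 3.81 to 3.97, LINC00458 from 2.48 to 2.75 and LINC-ROR from 2.12 to 2.42. ERVH48-1 ranged from 2.43 to 2.44, LINC01108 from 2.12 to 2.35 and C4orf51 from 0.79 to 0.98. ESRG stayed between -0.09 and -0.03, and KLKB1 between -0.30 and -0.19, and SCGB3A2 ranged from -0.05 to 0.06.

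Levels of different genes were compared per kilobase of annotated exon. In MEK5DD cells ESRG stood first (5094 ± 29.2 normalised counts per kilobase, SD, n = 2 as for every level here), followed by ERVH48-1 (4701 ± 33.5), ABHD12B (873 ± 6.51), LINC01108 (809 ± 90.0), SCGB3A2 (635 ± 15.4), HHLA1 (343 ± 0.68) and LINC00458 (82.6 ± 2.03). KLKB1 (55.0 ± 2.91), C4orf51 (50.3 ± 2.10) and LINC-ROR (48.0 ± 7.11) were lowest. Neighbours in that order that differed by less than the sum of their SDs were ABHD12B and LINC01108, KLKB1 and C4orf51, and C4orf51 and LINC-ROR. Per kilobase of the longest transcript instead, SCGB3A2 (1016) lay above LINC01108 (949) in MEK5DD cells, and LINC-ROR (71.7) above KLKB1 (68.7) and C4orf51 (60.6).

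In WT cells the order of these per-kilobase levels was different. ESRG (5310 ± 138) stood 6.11 times above ERVH48-1 (869 ± 5.49), which in MEK5DD cells came close to it. SCGB3A2 (632 ± 35.1) was next, above LINC01108 (171 ± 0.93). KLKB1 (65.3 ± 0.51) and ABHD12B (58.7 ± 4.82) were followed by C4orf51 (26.9 ± 2.59), HHLA1 (22.1 ± 2.83), LINC00458 (13.2 ± 1.84) and LINC-ROR (9.73 ± 0.63). C4orf51 and HHLA1 differed by less than the sum of their SDs, and the other neighbours did not. Per kilobase of the longest transcript, the order in WT cells was otherwise for 3 pairs. SCGB3A2 (1011) lay above ERVH48-1 (885), ABHD12B (91.1) above KLKB1 (81.6) and HHLA1 (33.0) above C4orf51 (32.4).

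Other genes of the table that start in the same stretch were then taken by sequence alone, a search chosen after the data were seen. The first 300 bases of 206694 GENCODE v29 transcripts were aligned with those of the 10 genes' transcripts. Both starts had to lie within 100 bases of an alignment of at least 150 bases and 75% identity. This gave 36 further genes, 2 of which (NFE4 and CYP1B1-AS1, neither listed) matched only ERVH48-1 or SCGB3A2 and not the stretch shared with ESRG. Of the 34 with that stretch 17 are listed and 16 were tested, with AC131094.1 below the filter. By limma 6 of the 16 were higher and 0 lower in MEK5DD cells, 37.5% and 0%, beside 7.69% and 6.47% of all tested genes. Among all 1371 tested long noncoding genes outside the 10, those with the shared start included, 2.77% were higher and 2.77% lower. The median log2 fold change of the 16 was 0.23, beside 0.00 over all tested genes, and 13 of the 16 were above 0. Without limma's mean-variance trend 3 of the 16 were higher and 0 lower. Over all 15721 tested genes 249 were then higher, against 1209 with the trend. No test of the list as a whole was made.

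**Figure D2:**
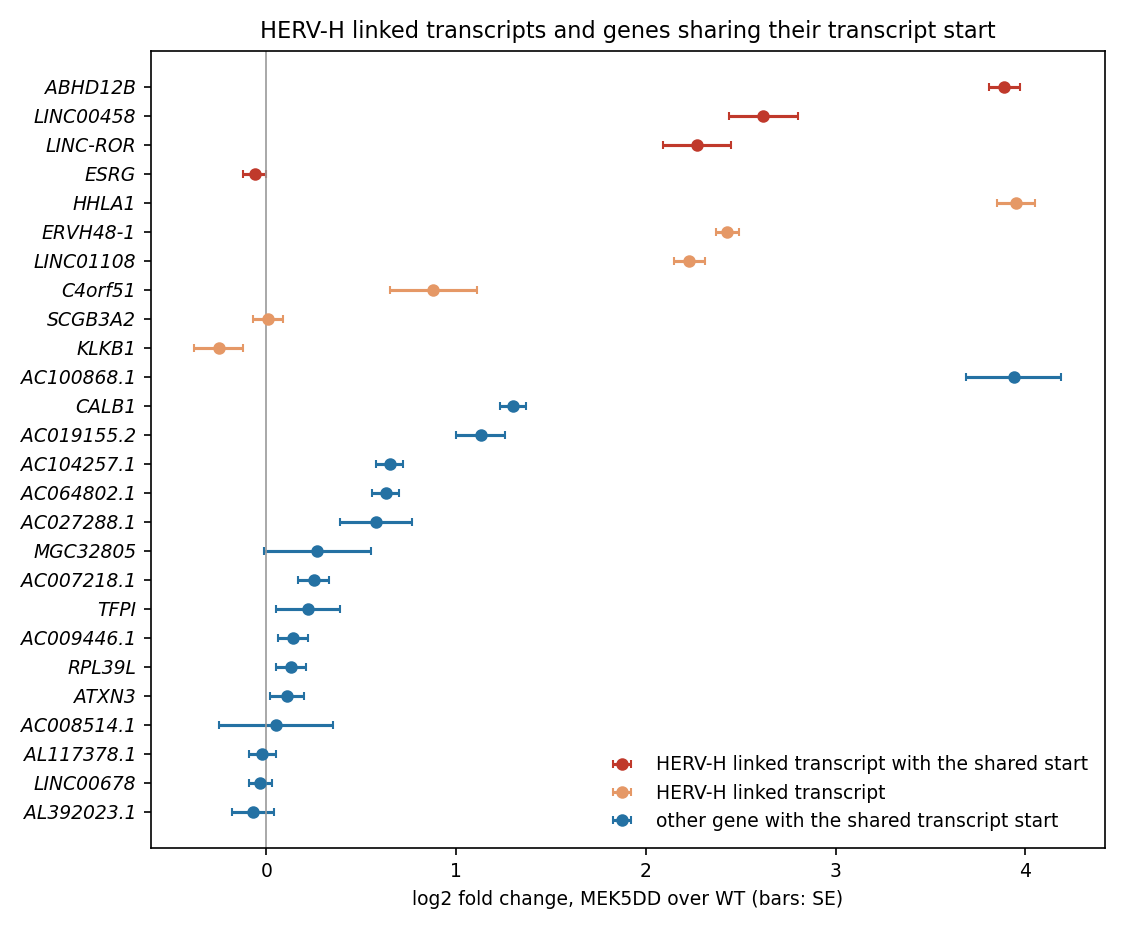
Log2 fold changes, MEK5DD over WT, with SE, for ABHD12B, LINC00458, LINC-ROR and ESRG, which share the transcript start (red), the other HERV-H linked transcripts (orange) and the 16 tested genes found by the shared start (blue). Genes with the shared start range from -0.07 to 3.94, and ESRG lies at the low end.

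The 6 genes that rose differed widely in size. AC100868.1 had counts of 134 and 160 in the MEK5DD libraries, against 7.93 and 9.37 in the WT libraries (log2 3.94, SE 0.25, adjusted p = 9.7e-07). Both WT values are below the filter value of 10, so it was tested only through the group in which it is high and had to differ. It overlaps HHLA1 on the same strand (chr8:132024238-132085655). Reads of these 2 genes may therefore be split or shared, and AC100868.1 is not independent of HHLA1. Without it 5 of 15 were higher and the median was 0.22.

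CALB1, which encodes the calcium-binding protein calbindin, had 2525 and 2737 in the MEK5DD libraries, against 1066 and 1066 in the WT libraries (log2 1.30, SE 0.07, adjusted p = 2.67e-07). This protein-coding gene has the shared stretch at the start of 1 or more annotated transcripts. Gene counts cannot separate those from its other transcripts, so which start rose is not known. The noncoding gene AC019155.2 had 326 and 280 in the MEK5DD libraries, against 142 and 133 in the WT libraries (log2 1.13, SE 0.13, adjusted p = 0.000114). For both, the groups were well separated, and the calls held under every alternative setting run.

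AC104257.1 (log2 0.65, SE 0.07, adjusted p = 0.000141) and AC064802.1 (log2 0.63, SE 0.07, adjusted p = 0.00015) rose by about equal amounts, and neither passed with limma's mean-variance trend turned off (adjusted p = 0.0519 and 0.0712). AC007218.1 rose least (log2 0.25, SE 0.08, adjusted p = 0.0437), and its call was lost under 5 of 14 alternatives, among them each WT library left out and DESeq2.

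The other 10 tested genes did not pass. LINC00678 had 3405 and 3649 in the MEK5DD libraries, against 3568 and 3637 in the WT libraries, and AL117378.1 had 2761 and 2947 in the MEK5DD libraries, against 2816 and 2962 in the WT libraries. In both the groups overlapped, with log2 fold changes of -0.03 (SE 0.06) and -0.02 (SE 0.07). AL392023.1 (log2 -0.07, SE 0.11) was the lowest of the 16. The protein-coding genes RPL39L (0.13, SE 0.08), ATXN3 (0.11, SE 0.09) and TFPI (0.22, SE 0.17) have the shared stretch at the start of 1 or more annotated transcripts, and gene counts cannot separate those from their other transcripts. AC027288.1 (0.58, SE 0.19, adjusted p = 0.0585) was closest to the threshold. AC008514.1 (0.05, SE 0.30), AC009446.1 (0.14, SE 0.08) and MGC32805 (0.27, SE 0.28) complete the 10.

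**Figure D3:**
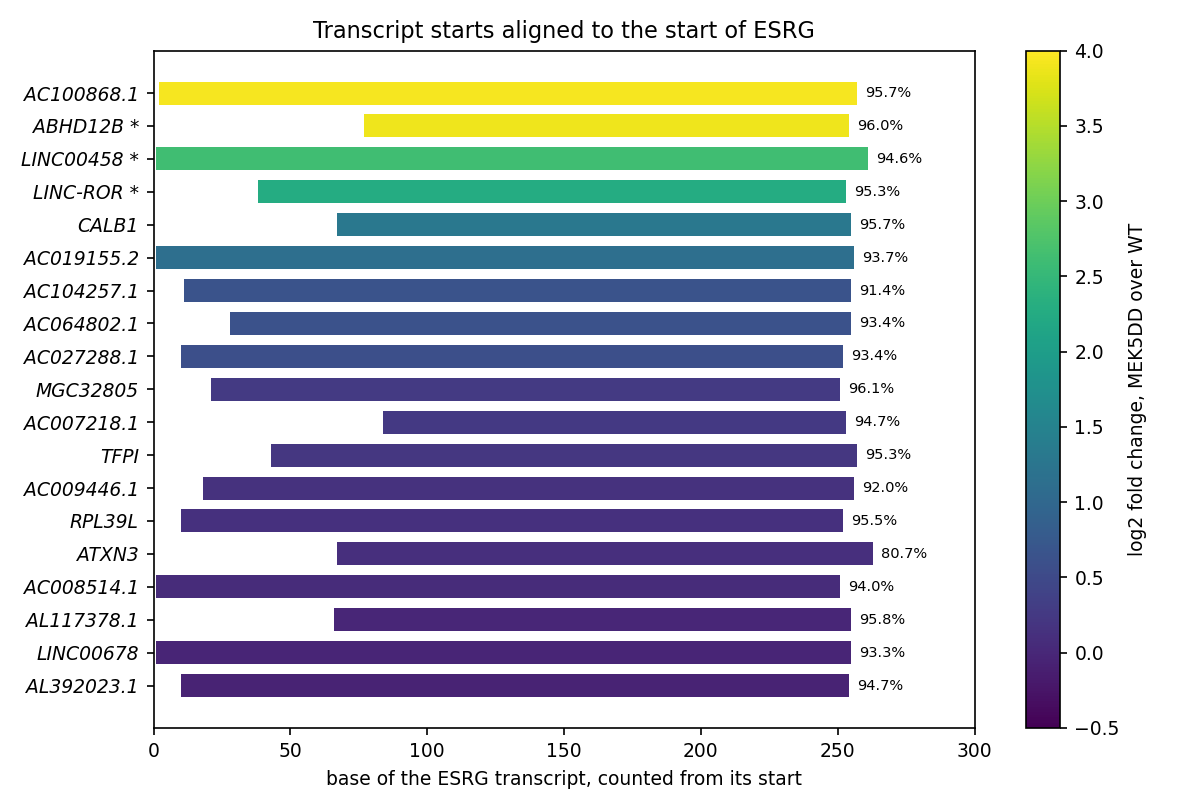
Stretch of each annotated transcript start that aligned with the start of ESRG, as bases of the ESRG transcript counted from its start, coloured by log2 fold change (MEK5DD over WT) and labelled with percent identity to ESRG; an asterisk marks HERV-H linked transcripts of the 10. Identity ranged from 80.7% (ATXN3) to 96.1% (MGC32805), and strongly and weakly changed genes are found at similar identity and similar positions.

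Neighbouring genes were examined to see whether the rises extended along the chromosome. Of 24 listed genes within 100 kb of one of the 10, 20 were tested. Of these 2 were higher and 3 lower, beside 7.69% and 6.47% of all tested genes, and the other 15 did not pass. The higher ones were AC100868.1 and JAKMIP2, a gene for a microtubule-associated protein 87.8 kb from SCGB3A2. JAKMIP2 had 505 and 560 in the MEK5DD libraries, against 329 and 366 in the WT libraries (log2 0.62, SE 0.10, adjusted p = 0.00172), although SCGB3A2 itself hardly differed. It did not pass when limma's trend was turned off (adjusted p = 0.0762).

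All 3 tested neighbours of ABHD12B were lower while ABHD12B was 14.8-fold higher. PYGL, the liver glycogen phosphorylase gene, overlaps ABHD12B on the other strand and had 1829 and 1929 in the MEK5DD libraries, against 2342 and 2215 in the WT libraries (log2 -0.28, SE 0.07, adjusted p = 0.0175). NIN, which encodes the centrosomal protein ninein, lies 41.0 kb away and fell by 0.50 on the log2 scale (adjusted p = 0.0131). TRIM9, a ubiquitin ligase gene of neurons 70.3 kb away, fell by 0.99 on the log2 scale (adjusted p = 0.0193). Without the mean-variance trend all 3 calls were lost, and without WT replicate 1 those of PYGL and TRIM9, and PYGL also without WT replicate 2 (adjusted p up to 0.320 for PYGL, 0.207 for NIN and 0.160 for TRIM9). The strand setting of the counting is not known here, so reads of PYGL and ABHD12B may in part be exchanged where they overlap.

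Next to HHLA1, the potassium channel gene KCNQ3 (9.70 kb away) had 0.24 (SE 0.20, adjusted p = 0.486) as its log2 fold change. The membrane protein gene EFR3A (47.8 kb away) had -0.28 (SE 0.09, adjusted p = 0.0523). Near ERVH48-1, the respiratory chain subunit gene NDUFV3, 3.50 kb away on the other strand, had a log2 fold change of -0.06 (SE 0.09). The transfer RNA methyltransferase subunit gene WDR4 had 0.01 (SE 0.10) and the homeobox gene PKNOX1 0.04 (SE 0.09). WDR7, 18.0 kb from LINC-ROR, had -0.20 (SE 0.10). CACNA2D3, the calcium channel subunit gene that overlaps ESRG on the other strand, had 0.31 (SE 0.16). ZNF827, which overlaps C4orf51 on the other strand, had -0.30 (SE 0.09, adjusted p = 0.052). None of these passed the threshold here, but EFR3A and ZNF827 lay just above it and were called lower under 6 of 14 alternatives each (adjusted p down to 7.81e-06 and 3.09e-05, without MEK5DD replicate 2).

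Around KLKB1, C4orf51 and SCGB3A2, the remaining tested neighbours were CYP4V2, F11, FAM149A, MMAA, AC104791.2, AC104791.1 and SPINK1. Their log2 fold changes ran from -0.54 (CYP4V2, SE 0.27) to 0.70 (AC104791.2, SE 0.33), and none passed. LINC00458 and LINC01108 had no listed gene within 100 kb.

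**Figure D4:**
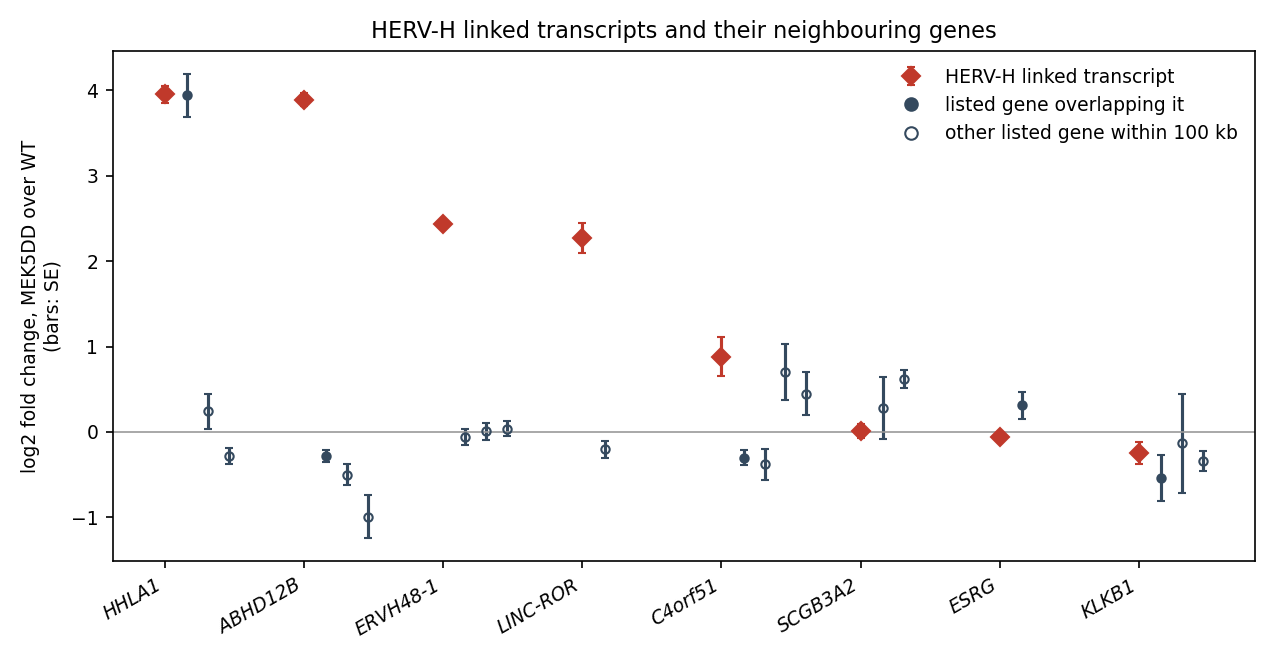
Log2 fold changes, MEK5DD over WT, with SE, of the HERV-H linked transcripts that have tested neighbours (diamonds) and of those neighbours within 100 kb, in order of distance to the right (filled circles overlap the transcript, open circles do not). AC100868.1, which overlaps HHLA1, is the neighbour at 3.94, and the others lie between -0.99 and 0.70.

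Genes known to activate or to silence HERV-H and other retroelements were counted as whole lists. Of 10 activator genes 3 were higher and 3 lower, beside 7.69% and 6.47% of all tested genes, with a median log2 fold change of -0.04. TFCP2L1, which is LBP9, had 383 and 398 in the MEK5DD libraries, against 266 and 259 in the WT libraries (log2 0.57, SE 0.10, adjusted p = 0.00282). NANOG rose by 0.26 (SE 0.06, adjusted p = 0.0117) and KLF4 by 0.74 (SE 0.21, adjusted p = 0.0314), the last at means of 83.1 ± 16.1 in MEK5DD and 48.8 ± 1.72 in WT libraries (SD, n = 2 each). POU5F1 (OCT4) had 42386 and 38116 in the MEK5DD libraries, against 39714 and 38568 in the WT libraries, so that the groups overlapped. SOX3 (log2 -1.32, SE 0.10, adjusted p = 4.53e-06), SOX2 (log2 -0.20, adjusted p = 0.0437) and the coactivator gene EP300 (log2 -0.25, adjusted p = 0.045) fell.

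Of 19 genes in the retroelement silencing list 17 were tested. Of these 0 were higher and 5 lower, beside 7.69% and 6.47% of all tested genes, with a median log2 fold change of -0.08. The list also holds TET1, TET2 and TET3, genes of DNA demethylation and not of silencing, and TET2 is among the 5. TRIM28, the corepressor of KRAB zinc finger proteins, had 11447 and 10231 in the MEK5DD libraries, against 10168 and 10202 in the WT libraries (log2 0.09, SE 0.06, adjusted p = 0.421). SETDB1, the histone H3 lysine methyltransferase recruited by TRIM28, had 572 and 555 in the MEK5DD libraries, against 728 and 668 in the WT libraries (log2 -0.31, SE 0.09, adjusted p = 0.0341). Also lower were the DNA methyltransferase gene DNMT1 (log2 -0.30, SE 0.06, adjusted p = 0.00707), the heterochromatin protein gene CBX5 (log2 -0.29, adjusted p = 0.0172) and MORC2 (log2 -0.25, adjusted p = 0.0436). TET2, an enzyme gene of DNA demethylation placed in the same list, fell by 0.94 on the log2 scale, with 22.7 and 29.9 in the MEK5DD libraries, against 56.4 and 45.8 in the WT libraries (adjusted p = 0.0327). ZNF534, a zinc finger gene known to bind HERV-H elements, and DNMT3L are not listed and were not analysed here.

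Of the named members of these lists, SOX3 kept its call under every alternative, and TFCP2L1 lost it only with the trend turned off (adjusted p = 0.0566). NANOG, SOX2, EP300, KLF4, SETDB1, DNMT1, CBX5, MORC2 and TET2 lost theirs under 3 to 5 alternatives, which for all of them include leaving out WT replicate 1.

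Other listed genes named for endogenous retroviruses or HERV-H were few. HHLA3, named like HHLA1 for a HERV-H terminal repeat, had 118 and 99.7 in the MEK5DD libraries, against 64.3 and 53.1 in the WT libraries (log2 0.88, SE 0.19, adjusted p = 0.00815), which did not pass with the trend turned off (adjusted p = 0.0743). ERVMER34-1, a conserved retroviral envelope gene, had 303 and 298 in the MEK5DD libraries, against 297 and 311 in the WT libraries. ERV3-1 (log2 -0.37, SE 0.18) and ERVK13-1 (-0.57, SE 0.43) did not pass, and ERVH-1 was below the filter. Of the 4 tested, 1 was higher and 0 lower, beside 7.69% and 6.47% of all tested genes.

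The tested genes whose pattern over the 4 libraries was most like that of HHLA1, by Euclidean distance between log2 deviations from each gene's mean, were AC100868.1 (distance 0.185), the stathmin gene STMN2 (0.296) and the small GTPase gene RHOB (0.385). The same 3 were nearest to ABHD12B, at 0.200, 0.217 and 0.298. With 4 libraries in 2 groups this likeness is largely the size of the difference between groups.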

How the data were processed

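Poly(A) RNA of 2 MEK5DD and 2 WT libraries of H1 cells was sequenced in paired-end mode (Illumina NextSeq), per the labels' protocols. Tools and build were hg38, STAR, Trimmomatic 0.36, DESeq2 1.26.0 and featureCounts 1.5.3, per the submitters' processing notes, with strand setting and annotation not given in the sources used here. The deposited values are a normalised signal per gene, which the authors made by dividing read counts by a size factor. Dividing each library by the value of 1 read gave whole numbers for 100% of values within 0.001, and these recovered reads sum to 14908486 to 17628945 per library. No listed gene is at 0 reads anywhere, and genes with such a library were not analysed here.

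Of 17472 genes, the 15721 reaching a value of 10 in 2 or more libraries were fitted as log2(value + 1) with limma 3.58.1 (R 4.3.3, trend on the mean), MEK5DD against WT, with Benjamini-Hochberg adjustment over all tested genes and a threshold of 0.05. A fold change on this scale understates that of low genes. The 10 transcripts and the gene lists were chosen with earlier results of these data known. The fit was checked on simulated data. Alternatives were edgeR 4.0.16 and DESeq2 1.42.0 on the recovered reads, other scaling, filters and pseudocounts, the replicate block and each library left out.

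Sequences are RefSeq promoters (GRCh38.p14) and GENCODE v29 transcripts, aligned with blastn 2.17.0 on the same strand. The planned search of promoters had windows for only 5 of the 10 and found no gene sharing a stretch with those. Of the genes with the shared start only ABHD12B had a window, at another start, so this search could not find the shared stretch. The search of transcript starts was added after seeing the data. The sequences of those starts are not reported here. Named besides the 10 were MAP2K5, 7 pluripotency and silencing genes, all listed neighbours within 100 kb, all genes with ERV or HHLA names, up to 4 called genes per list, up to 6 called genes with a shared start, and the 3 genes nearest to HHLA1 and ABHD12B. The genes with a shared start that did not pass, EP300, MORC2, NFE4, CYP1B1-AS1 and the marker genes were named after values were seen.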

Additional observations from a re-analysis of the deposited data

How the results depend on the processing

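The 10 were chosen by their differences in these libraries, so calls they keep under an alternative are no sign of stability. C4orf51 lost its call with DESeq2 and without WT replicate 1, and with a minimum mean of 50 it was not fitted. Over all genes 2226 were called, against 439 without the mean-variance trend, 1358 with DESeq2 and 2306 with edgeR. Leaving out 1 library gave 1157 to 4608 calls, the larger numbers (4608 and 3715) when MEK5DD replicate 2 or 1 was left out and the smaller (1184 and 1157) when WT replicate 1 or 2 was. The lone library left in a group is then assumed to vary like the other group, and the cause of these shifts was not tested. With the replicate block 3349 genes were called. Deviations of same-numbered libraries correlated at 0.0469 over genes, and the 2 pairs share only a number. Of the genes with the shared transcript start 6 were called, 3 without the mean-variance trend, 7 with the replicate block, 8 of 19 at 100 aligned bases and 4 of 12 at 200, and 5 or 6 under the other alternatives. The promoter search gave 0 genes at 100, 150 and 200 aligned bases. With no gene found, the fit alternatives could not change that number and are no check of it. Named genes outside the 10 were followed through the alternatives, except the fibroblast markers and CXCR4. The calls of COL1A1, COL1A2 and TAGLN were thus not checked in this way. Of 31 called genes followed, 7 (MAP2K5, SIX3, STMN2, RHOB, SOX3, CALB1 and AC019155.2) kept their call under all 14 alternatives. AC100868.1 and SOX1 kept theirs in the 12 and 13 in which they were fitted. Of the uncalled, EFR3A and ZNF827 were called under 6 alternatives, FAM149A under 2, and AC009446.1, AC027288.1, ERV3-1, ERVK13-1, POU5F1, RPL39L and TRIM28 under 1. Of the 61 genes followed, 0 changed sign where the main fit or the alternative made a call. Some changed sign without a call. Without MEK5DD replicate 1, POU5F1 went from 0.04 to -0.04 and ERVK13-1 from -0.57 to 0.14 on the log2 scale. No scaling moved the median of all genes beyond -0.017 on the log2 scale.

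With 2 libraries a group, the smallest differences here rest on the spread pooled over genes. Low counts limit C4orf51 (SE 0.23), LINC00458 and LINC-ROR (SE 0.18) among the 10, and F11 (SE 0.58), ERVK13-1 (SE 0.43) and SPINK1 (SE 0.36) among the others. Gene-level counts show neither which start a transcript used nor reads from unannotated HERV-H copies.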
